A study of Mus musculus with 3 samples.

Results

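The genes described here are 33 mouse genes of the unfolded protein response and of endoplasmic reticulum (ER) stress, out of 27998 genes in the deposited matrices. They were chosen by name, with earlier results of these data known. They are 3 stress sensors, 3 transcription factors, 8 chaperones of the Hsp70 and Hsp90 kind with their cofactors, 2 lectin chaperones, 4 protein disulfide isomerases, 7 genes of ER-associated degradation, 2 of the translocon and 4 target genes of ATF4 and CHOP. They were followed through 3 single-cell RNA libraries of lung cells, taken from MMTV-HER2/Neu mice on the FvB background. Mice of every group carry the HER2/Neu transgene under the mouse mammary tumour virus promoter, which drives it in mammary epithelium. The early HER2-negative library (CD45-, HER2- cells, labelled non-cancer) and the early HER2-positive library (CD45-, HER2+ cells) came from mice of 14 to 18 weeks with no palpable tumour. The late HER2-positive library (CD45-, HER2+ cells) came from mice older than 20 weeks with primary tumours. Cells of both HER2-positive libraries are labelled as breast cancer cells disseminated to the lung (DCCs). Each group is 1 library, and how many animals were pooled in it is not given in the sources used here.

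Proteins that enter the secretory pathway are folded in the ER. When unfolded proteins accumulate there, the sensors IRE1 (Ern1), PERK (Eif2ak3) and ATF6 signal to the nucleus: IRE1 splices the messenger RNA of the transcription factor Xbp1, PERK slows translation and favours synthesis of the factors ATF4 and CHOP (Ddit3), and ATF6 is cut to release a transcription factor of its own. Target genes encode chaperones, disulfide isomerases and the machinery that removes misfolded proteins, and the pathway is also active without stress in cells that secrete much protein, such as milk-producing mammary epithelium and surfactant-producing alveolar type 2 (AT2) cells.

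Barcodes with at least 1000 unique molecular identifiers (UMIs, each counted as 1 captured RNA molecule) and under 25% mitochondrial UMIs were kept: 6416 HER2-negative, 7622 early HER2-positive and 6012 late barcodes, with 23039097, 44541222 and 51075059 UMIs and medians of 3166, 5318.5 and 8075 per barcode. Barcodes were placed in 6 classes by a few defining genes, in order, at the first match: mammary (at least 1% of UMIs on Csn3 and Wfdc18), AT2 (at least 10% on Sftpc), airway (at least 3 UMIs of Cyp2f2 and Foxj1), then endothelial (Cldn5 and Cdh5), mural (Higd1b, Cox4i2 and Myh11) and fibroblast (Pdgfra and Col1a2), each at 2 UMIs or more. The mammary class held 161 late HER2-positive barcodes, with a median of 22179 UMIs, and none elsewhere. The early HER2-positive library, although labelled as cancer cells, held 0 of 7622, which allows a share of up to 0.0394%. In the mammary class 11 of 12 mammary markers were at 50 CPM (counts scaled to a common total of UMIs per class) or more. The 12 include Csn3 and Wfdc18, which define the class, so this count is not independent of the rule. Erbb2, the mouse gene of HER2, was at 307 CPM in the mammary class against 7.76 to 26.9 CPM in every other class analysed. Whether reads of the HER2/Neu transgene count towards Erbb2 is not given in the sources used here. Its 8 leukocyte markers summed to 1.08 CPM with 6 at 0, and its 3 plasma cell markers to 0.27 CPM with 2 at 0. AT2 markers summed to 6902 CPM there, with 0 of 9 at 0, alveolar type 1 markers to 7027 CPM (of which Aqp5 alone 6961), endothelial markers to 36.0 and fibroblast markers to 35.7 CPM. AT2 barcodes numbered 3939 early and 3996 late, endothelial 5186, 1558 and 486, mural 221, 1352 and 931 and fibroblast 684, 268 and 71 (in each case the HER2-negative library first and the late library last), and airway 155 early HER2-positive and 196 late. The early HER2-negative AT2 class (46 barcodes) and airway class (1 barcode) were too small to analyse. Between 46.4% and 55.2% of mural barcodes also met the definition of another class, as did 14.6% to 17.4% of AT2 and 6.21% of mammary barcodes. Pairs of libraries shared 10 to 18 kept barcodes.

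With 1 library per group there is no replicate check, so no test was made. The 95% intervals given below cover counting error only. A gene was called higher or lower at 1.5-fold or more, where the 2 sums compared held at least 50 counts of it. These are 3′ tag counts and not per length, so levels are compared between classes within a gene and never between genes.

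Promoters are shown first. Their sequences were not read for the choice by name, but the genes were named as parts or targets of this pathway. The shares of genes with its elements are therefore not independent of that choice. Of the 33 genes, 30 had an entry among the RefSeq promoters of GRCm38.p6 (Atf6, Derl1 and Manf were not matched). The 250 bases before each start were searched on both strands for the long form of the ER stress element, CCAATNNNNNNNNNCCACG, to which ATF6 binds together with NF-Y. It was found in 9 of 30 genes (30%) and in 26 of all 17999 genes with a promoter (0.144%). The windows below lie upstream of the RefSeq start on the strand of the gene, read 5′ to 3′. Those of Hspa5 and Asns lie inside the gene bounds of GENCODE, which start further upstream. Capitals mark the fixed letters of each match, which read CGTGG and then ATTGG where the match is on the other strand. Shown are Hspa5, Hsp90b1 (2 matches), Calr and Derl3, which were higher in the mammary class than in the AT2 class, and Canx, which was not called.
Hspa5 (chr2:34772005-34772063, plus strand): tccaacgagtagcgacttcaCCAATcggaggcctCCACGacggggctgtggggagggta
Hsp90b1 (chr10:86705513-86705676, minus strand): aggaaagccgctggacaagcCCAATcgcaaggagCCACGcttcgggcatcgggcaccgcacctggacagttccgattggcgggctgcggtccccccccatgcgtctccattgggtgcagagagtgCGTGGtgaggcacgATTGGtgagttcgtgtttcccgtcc
Calr (chr8:84847055-84847113, minus strand): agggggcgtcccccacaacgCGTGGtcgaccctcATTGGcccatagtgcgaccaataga
Derl3 (chr10:75893222-75893280, plus strand): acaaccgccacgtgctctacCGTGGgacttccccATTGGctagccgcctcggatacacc
Canx (chr11:50325780-50325838, minus strand): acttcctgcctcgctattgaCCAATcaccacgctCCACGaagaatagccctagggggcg

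The other 4 genes with the long form were Pdia6, Dnajc3, Creld2 and Syvn1. The short form, ATTGGNCCACG, was in Herpud1 and in 7 of 17999 genes (0.0389%). TGATGNAA, the C/EBP-ATF composite element to which ATF4 binds as a partner of C/EBP proteins, was in Herpud1, Asns and Chac1, which is 10% of the 30 genes against 3.52% of all 17999. The unfolded protein response element TGACGTGG was in none of the 30 and in 0.728% of all genes. The windows of Herpud1, which held both kinds of element, of Asns and of Chac1 follow, with the fixed letters of each match in capitals.
Herpud1 (chr8:94386297-94386407, plus strand): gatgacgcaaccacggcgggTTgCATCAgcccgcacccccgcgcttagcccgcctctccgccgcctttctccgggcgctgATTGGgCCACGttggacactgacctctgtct
Asns (chr6:7693210-7693252, minus strand): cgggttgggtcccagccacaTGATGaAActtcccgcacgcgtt
Chac1 (chr2:119351029-119351076, plus strand): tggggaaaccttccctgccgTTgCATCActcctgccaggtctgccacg
A match describes letters only. Binding was not measured.

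Within the late HER2-positive library, the mammary class held the highest level of Xbp1 of any class analysed, and of the chaperones Hsp90b1 and Calr and the degradation gene Derl3. It held neither the highest Atf4, Atf6 and Ddit3, nor the highest Hspa5. The 33 genes together reached 9235 CPM (9137 to 9333) in the mammary class, 9008 (8712 to 9313) in the fibroblast class, 6789 in endothelial, 5654 in mural, 4805 in airway and 3439 in AT2 barcodes. The intervals of the mammary and fibroblast classes overlapped, and both lay above the other 4. The mammary class was the highest for 13 of 33 genes, with intervals apart from the next class for 9: Xbp1, Hsp90b1, Calr, P4hb, Sdf2l1, Sel1l, Derl3, Trib3 and Sec61b. The fibroblast class was the highest for 15, with separate intervals for Hspa5, Pdia3 and Dnajc3. Endothelial barcodes were the highest for 4, with separate intervals for Chac1 and Ppp1r15a, and mural barcodes for 1. The highest class was not counted over all genes, so these counts cannot be read as particular to the 33.

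**Figure D1:**
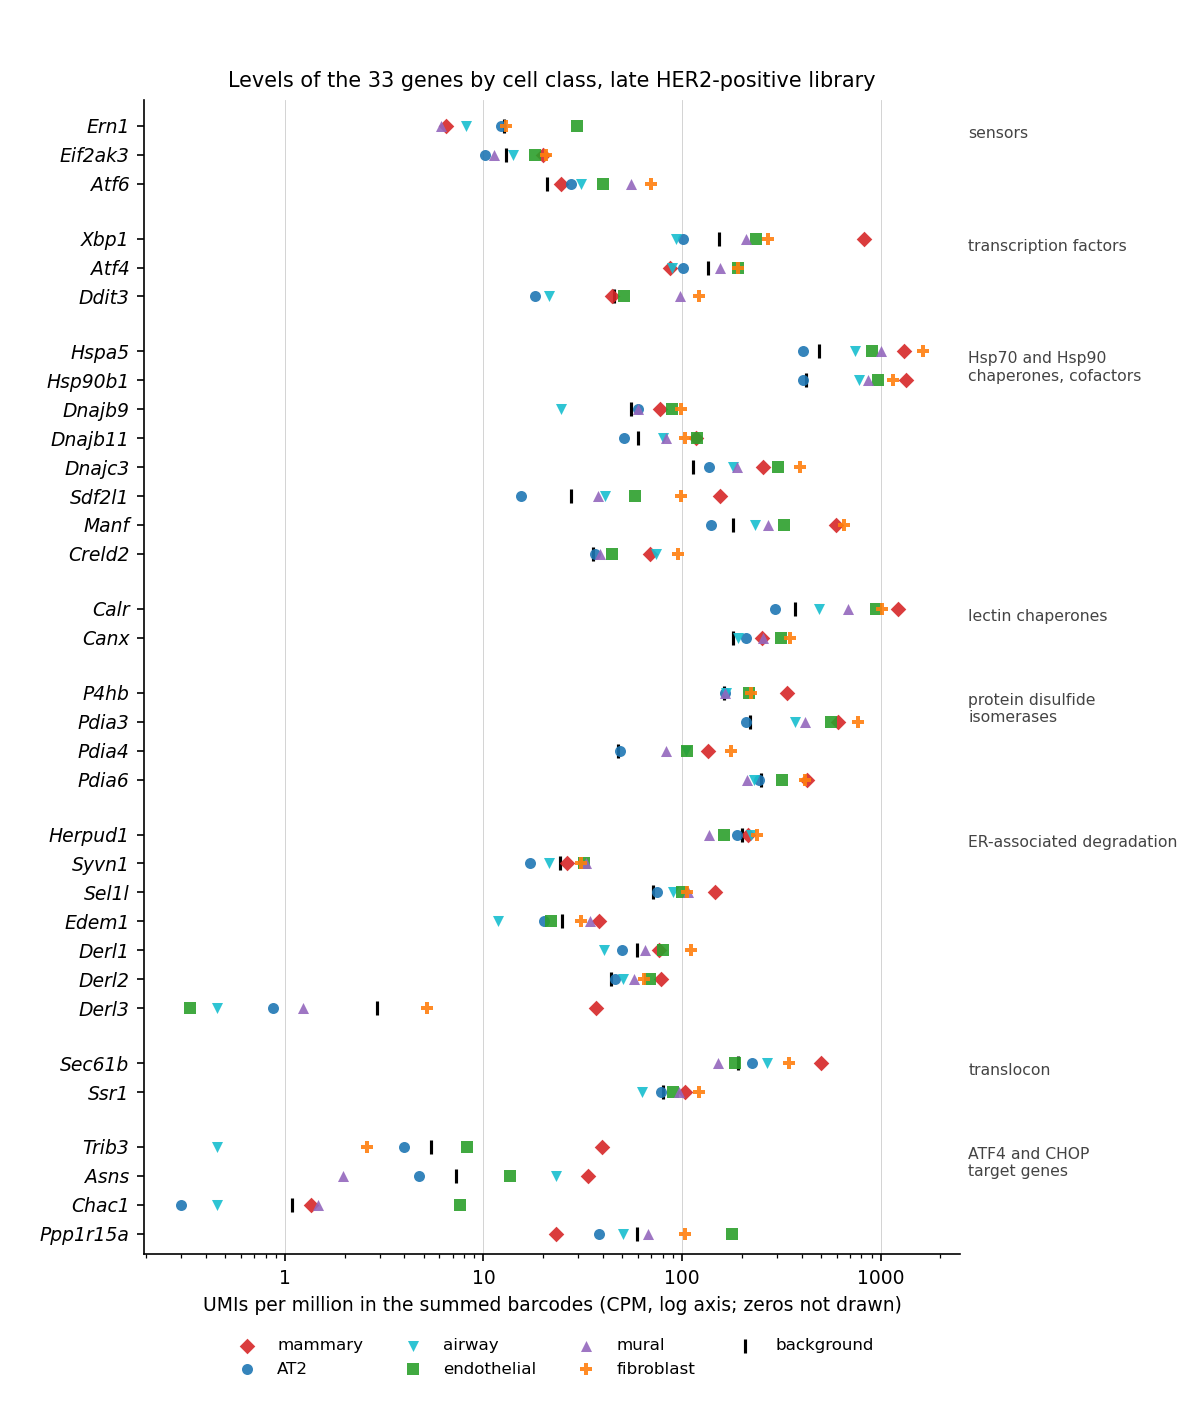
Level of each of the 33 genes in the classes of the late HER2-positive library, in CPM on a log axis. Each point is the sum over the barcodes of 1 class, a class at 0 counts is not drawn, and the black tick is the level in barcodes of 1 to 100 UMIs. Xbp1 in the mammary class stood at 827 CPM, to the right of all other classes, while Atf4 there, at 86.8 CPM, was to the left of the fibroblast and endothelial points.

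The sensors did not follow Xbp1. Ern1, whose product splices the Xbp1 transcript, was at 6.49 CPM in mammary (24 counts), 6.14 in mural, 8.22 in airway, 12.2 in AT2, 12.9 in fibroblast and 29.5 CPM in endothelial barcodes. Eif2ak3, the kinase PERK, lay between 10.2 CPM in AT2 and 20.7 CPM in fibroblast barcodes, with mammary at 20.0 CPM. Atf6 was at 24.6 CPM in mammary, 27.5 in AT2, 31.0 in airway, 40.1 in endothelial, 55.0 in mural and 69.8 CPM in fibroblast barcodes. Endothelial barcodes had the highest value of Ern1 and fibroblast barcodes of Atf6, but neither order was clear: the endothelial interval for Ern1 (23.7 to 36.3) overlapped the fibroblast one (4.2 to 30.2, from 5 counts), and the fibroblast interval for Atf6 (46.0 to 102) the mural one (48.1 to 62.7).

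Of the transcription factors, Xbp1 was at 827 CPM (798 to 857) in mammary, 271 (222 to 329) in fibroblast, 235 (218 to 253) in endothelial, 209 (195 to 223) in mural, 101 in AT2 and 93.6 CPM in airway barcodes. Xbp1 counts cover the gene as a whole and do not separate spliced from unspliced transcripts. Atf4, the factor translated when PERK is active, was at 86.8 CPM in mammary, 88.6 in airway, 101 in AT2, 155 in mural, 190 in endothelial and 191 CPM in fibroblast barcodes. Ddit3, which encodes CHOP, was at 18.3 CPM in AT2, 21.5 in airway, 44.3 in mammary, 51.1 in endothelial, 97.8 in mural and 122 CPM in fibroblast barcodes. The mammary and endothelial intervals of Ddit3 overlapped (37.8 to 51.7 and 43.3 to 59.8), as did those of mural and fibroblast barcodes.

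Mammary was next set against AT2 barcodes, the most numerous class of the same library. Of 32 genes with enough counts, 24 were higher in the mammary class, where 44.8% of all 11495 genes tested were higher, and 2 were lower, where 21.8% of all were. The median log2 ratio was 0.98 over the 32 and 0.47 over all genes tested. AT2 barcodes put 26.6% of their UMIs (median) on 16 secretory products, the mammary class 6.58%, and every other gene takes its share from the remainder. With CPM counted without those products, 19 were higher and 2 lower, against 33.3% and 27.8% of all genes. With a trimmed-mean scaling factor 12 were higher and 4 lower, against 23.7% and 36.8%, and the medians were 0.34 and -0.17, so the scaling moved the median of all genes by more than the distance of the members from it.

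**Figure D2:**
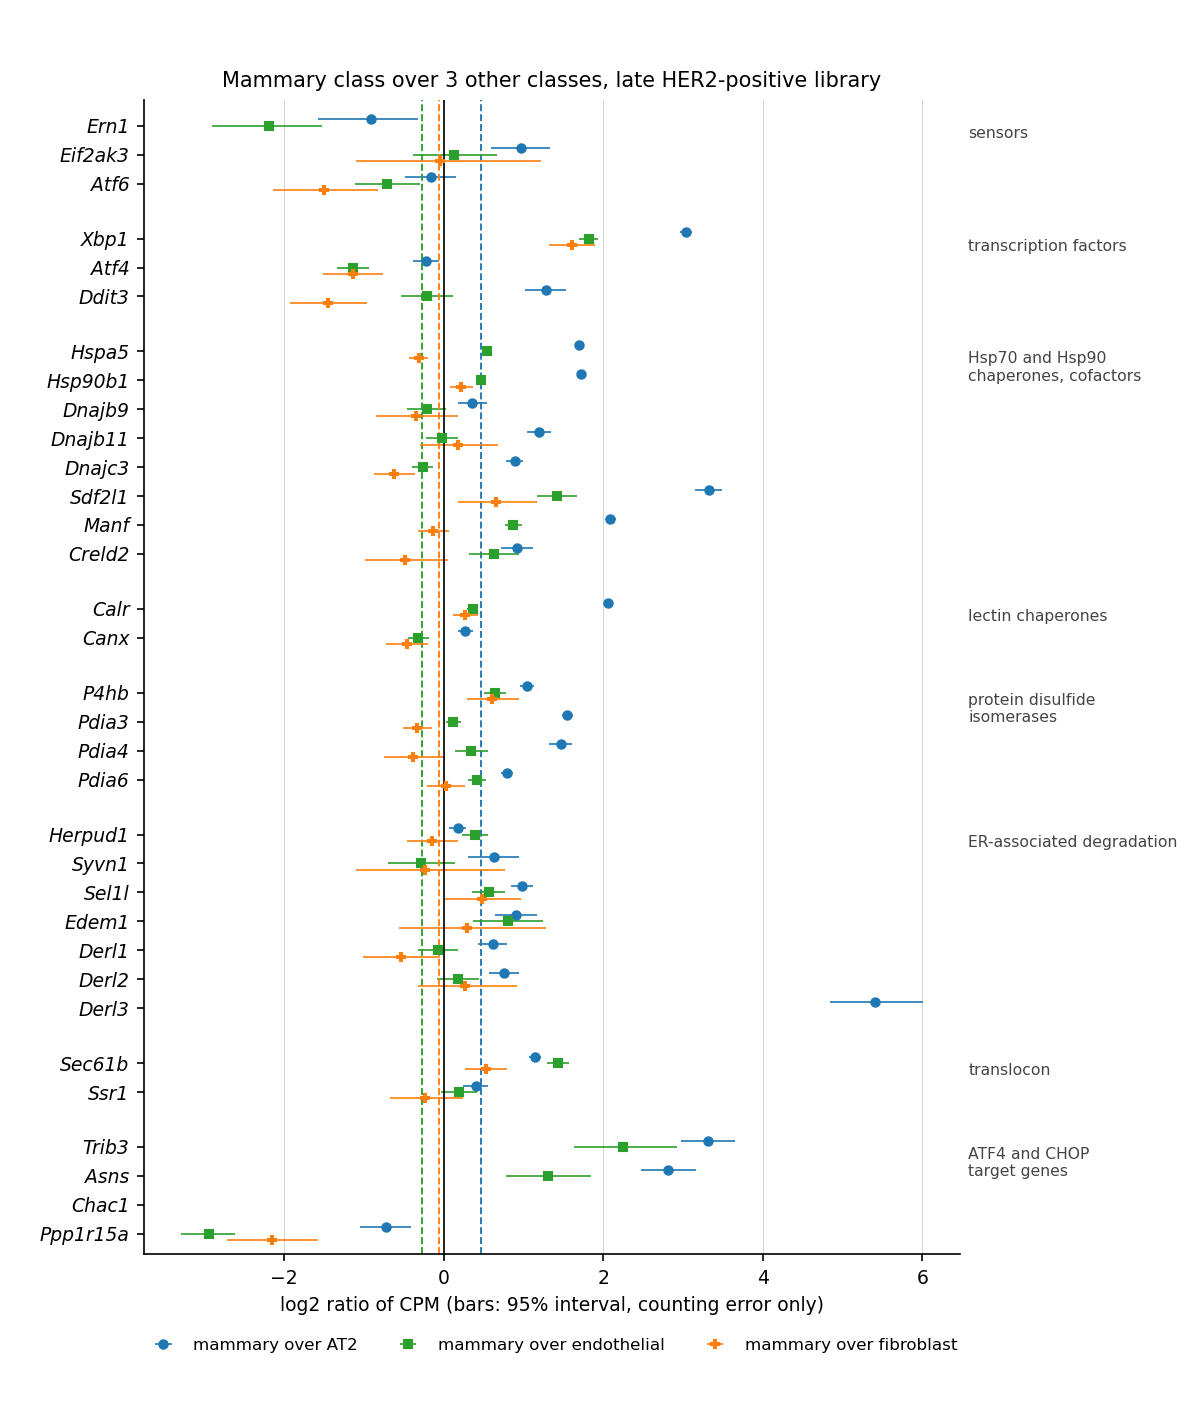
Ratio of each gene in the mammary class to the AT2, endothelial and fibroblast classes of the late HER2-positive library, as log2 of CPM, with 95% counting intervals. The dashed lines are the medians of all genes tested, and points with 3 counts or fewer in a sum or too few counts to test are not drawn. Xbp1 and Sdf2l1 lay to the right of 0 against all 3 references, and Ppp1r15a to the left.

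Xbp1 was 8.22-fold higher in mammary than in AT2 barcodes (7.83 to 8.62). Ddit3 was 2.43-fold higher (2.03 to 2.89) and Eif2ak3 1.96-fold (1.51 to 2.52). Atf4 (ratio 0.86) and Atf6 (ratio 0.896) were called in neither direction, and Ern1 was lower, at 0.53 of the AT2 level (0.336 to 0.799). The summed transcription factors thus stood at 958 against 220 CPM, of which most was Xbp1, and the summed sensors at 51.1 against 49.9 CPM.

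The ER chaperones were higher in the mammary class by 1.85-fold to 10-fold where called. Hspa5, the ER Hsp70 that also holds the sensors inactive, was at 1313 CPM (1277 to 1351) in mammary and 404 CPM (398 to 411) in AT2 barcodes, a 3.25-fold difference. Hsp90b1, the ER Hsp90, was at 1341 and 406 CPM (3.3-fold, 3.2 to 3.41). Sdf2l1, a cofactor of Hspa5, was at 155 and 15.4 CPM, 10-fold higher (8.9 to 11.3), which was the widest gap of this role. Manf, a protein that binds Hspa5, was at 596 and 140 CPM (4.26-fold, 4.05 to 4.48). Of the DnaJ cochaperones, Dnajb11 was at 117 and 51.0 CPM (2.3-fold) and Dnajc3 at 254 and 137 CPM (1.85-fold), while Dnajb9, at 77.1 and 60.0 CPM, was not called. Creld2, another ER protein of this role, was at 68.7 and 36.3 CPM and was called. The sum of the role was 3922 against 1250 CPM.

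Of the lectin chaperones, which hold glycoproteins while they fold, Calr was at 1222 CPM (1186 to 1258) in mammary and 294 CPM (288 to 299) in AT2 barcodes, 4.16-fold higher (4.01 to 4.3), but Canx, its membrane-bound counterpart, was at 254 and 210 CPM and not called. All 4 disulfide isomerases were called higher. Pdia3 was at 611 and 209 CPM (2.92-fold), Pdia4 at 135 and 48.8 CPM (2.76-fold, 2.5 to 3.05), P4hb at 339 and 164 CPM (2.07-fold, 1.95 to 2.2) and Pdia6 at 425 and 245 CPM (1.73-fold).

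Among the genes of ER-associated degradation, Derl3, a derlin of the channel through which misfolded proteins leave the ER, was at 37.0 CPM (31.1 to 43.8) in mammary and 0.875 CPM (0.598 to 1.24) in AT2 barcodes, 42.4-fold higher (28.7 to 64.3). The widest gap of all 33 genes was thus in a gene with 137 mammary counts, of which 17.5% came from 1 barcode. Its relatives differed less: Derl1 by 1.53-fold and Derl2 by 0.76 on the log2 scale. Sel1l, the adaptor of the ubiquitin ligase of the pathway, was 1.97-fold and the ligase Syvn1 1.55-fold higher, and Edem1, which recognises misfolded glycoproteins, was 0.91 higher on the log2 scale. Herpud1, which organises the complex, was at 215 and 190 CPM and not called.

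Sec61b, a subunit of the translocon through which new proteins enter the ER, was at 499 and 225 CPM (2.22-fold, 2.11 to 2.33), and Ssr1, of the translocon-associated complex, at 104 and 78.2 CPM, not called. The ATF4 and CHOP target genes went in different directions. Trib3, a pseudokinase, was at 39.5 and 3.96 CPM (9.96-fold higher, 7.86 to 12.6), and Asns, asparagine synthetase, at 33.5 and 4.76 CPM (7.05-fold, 5.55 to 8.93). Ppp1r15a, which encodes the phosphatase subunit GADD34 that reverses the PERK signal, was at 23.3 and 38.2 CPM, lower at 0.608 of the AT2 level (0.483 to 0.756). Chac1, which degrades glutathione, had 5 and 11 counts, too few to test.

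The promoter groups did not separate in this comparison. Of the 10 genes with an ER stress element of either form, 8 were higher and none lower, with a median log2 ratio of 0.91, and of the 19 tested genes with a promoter but no such element 14 were higher and 2 lower, with a median of 1.05.

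Endothelial and fibroblast barcodes of the late library were added as references after the data had been seen. Against endothelial barcodes 10 of 32 genes were higher in the mammary class (26.7% of all genes were) and 4 lower (39.4% of all), with a median log2 ratio of 0.36 against -0.27 over all genes tested. With the trimmed-mean factor 16 were higher and 3 lower, against 32.2% and 32.7% of all genes. Xbp1 was 3.52-fold higher (3.24 to 3.83), Sdf2l1 2.68-fold (2.26 to 3.2), Sec61b 2.7-fold, Manf 1.83-fold, Edem1 1.74-fold, P4hb 1.56-fold and Creld2 1.55-fold. Trib3 was 4.76-fold higher (3.1 to 7.6), Asns 2.47-fold (1.72 to 3.6), and Derl3 stood at 137 counts against 1, a ratio of 112 with an interval of 19.7 to 4445. Atf4 was lower at 0.456 of the endothelial level (0.397 to 0.524), Atf6 at 0.613, Ern1 at 0.22 (0.134 to 0.348) and Ppp1r15a at 0.13 (0.102 to 0.163).

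Against fibroblast barcodes 6 of 31 genes were higher in the mammary class (29.5% of all genes were) and 5 lower (29.7% of all), with a median log2 ratio of -0.14 against -0.06 over all genes tested, so the counts of members stood near or below the share of all genes. With the trimmed-mean factor 12 were higher and 4 lower, against 42.3% and 19% of all genes. Xbp1 was 3.05-fold higher (2.51 to 3.74), Sdf2l1 1.57-fold (1.13 to 2.25) and P4hb 1.53-fold. Fibroblast barcodes held 2 counts of Derl3 (ratio 7.16, 1.95 to 59.7), 1 of Trib3 (ratio 15.3, 2.7 to 607) and 0 of Asns, which was at least 4.32-fold higher in the mammary class, taking 3 counts over the fibroblast class as the limit. Atf6 was lower at 0.352 of the fibroblast level (0.227 to 0.563), Ddit3 at 0.365 (0.262 to 0.516), Atf4 at 0.454, Ppp1r15a at 0.225 and Dnajc3 at 0.652. Hspa5, at a ratio of 0.805 (0.741 to 0.876), and Manf, at 0.915, were not called.

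How the 33 genes were spread over cells was described per barcode. Their median share of UMIs was 0.752% in the mammary class (quartiles 0.523% and 1.05%), 0.796% in late fibroblast (0.557% and 1.03%), 0.644% in endothelial, 0.527% in mural, 0.499% in airway and 0.307% in AT2 barcodes (0.229% and 0.408%). Without the 16 secretory products in the total, the medians were 0.816% in mammary and 0.415% in AT2 barcodes. The mammary class ranged from 0.387% at its 10th to 1.41% at its 90th percentile, so its lowest barcodes lay within the AT2 range.

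**Figure D3:**
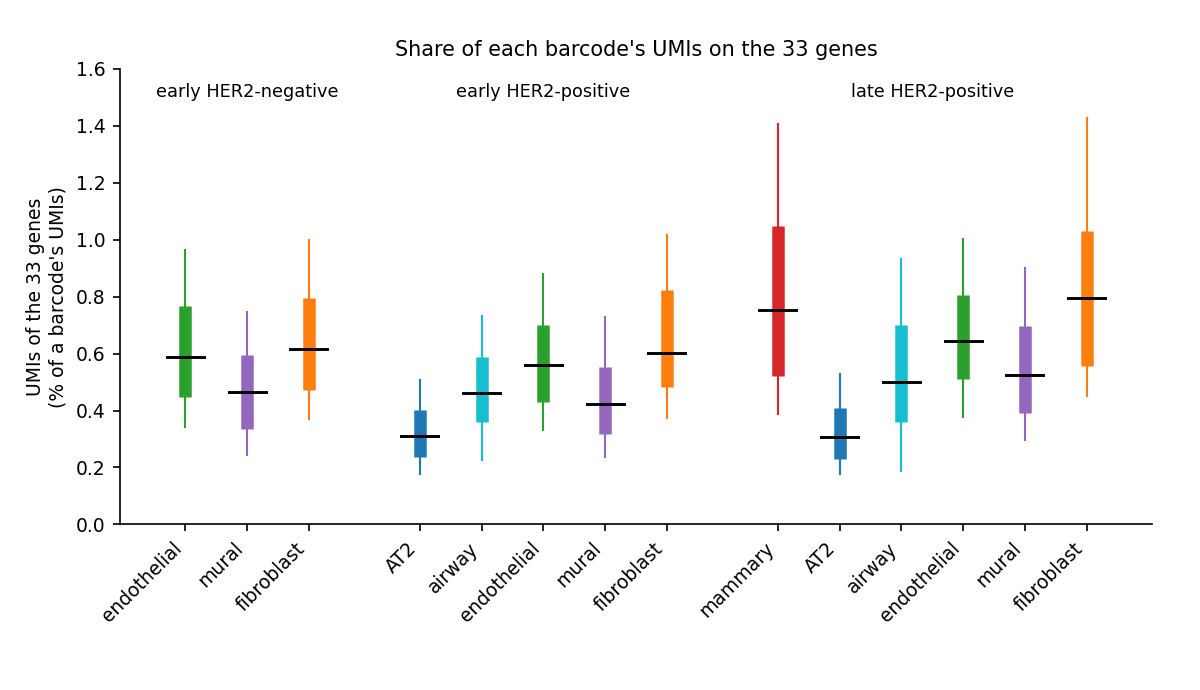
Share of the UMIs of a barcode that fall on the 33 genes, in percent, by class and library. The black line is the median, the bar spans the quartiles and the thin line the 10th to 90th percentile. The late mammary and fibroblast medians (0.752% and 0.796%) were the highest and the AT2 medians the lowest in the libraries in which those classes were analysed.

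Xbp1 was found in 157 of 161 mammary barcodes, with a median of 17 counts, and its highest barcode held 3.40% of the counts. Hspa5 was found in 158. Derl3 was found in 55, and its 16 highest barcodes held 67.2% of its counts. Xbp1 was thus spread over nearly all mammary barcodes and Derl3 over a minority of them. Because mammary barcodes were deeper than the others (median 22179 UMIs, against 8837 in AT2 and 5399 in endothelial barcodes), each barcode was also thinned to 1000 UMIs, which left out no barcode. A UMI of Xbp1 was then seen in 52.2% of mammary, 8.48% of AT2 and 20.8% of endothelial barcodes (97.5%, 53.5% and 65.4% unthinned). For Hspa5 the thinned shares were 52.2%, 28.8% and 52.1%, so the mammary class stood above AT2 barcodes and not above endothelial ones. For Sdf2l1 they were 11.2%, 1.43% and 4.94% (77.6%, 11.6% and 26.5% unthinned), and for Manf 31.7%, 11.8% and 24.7%. For Derl3 they were 3.73%, 0.125% and 0% (34.2%, 0.776% and 0.206% unthinned), where 0 of 486 endothelial barcodes is a limit of this depth, and for Asns 5.59%, 0.375% and 0.823%.

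Across the 161 mammary barcodes, the share of UMIs on Hspa5 (secretory products left out of the total) had Spearman correlations of 0.822 with Manf, 0.781 with Calr, 0.773 with Hsp90b1, 0.741 with Pdia6, 0.712 with Pdia3, 0.696 with Dnajc3 and 0.689 with Sdf2l1. With Xbp1 it was 0.332, with Ddit3 -0.02 and with Trib3 -0.15. The barcodes share 1 library and a denominator and differ in depth, and the share of UMIs on the 33 genes itself had a correlation of 0.393 with the depth of a barcode, so these values are a description. P4hb, with 1255 counts, had 0.05, and Derl3, with 137, had 0.397, while Ern1, with 24, had -0.08. The part of abundance in these values was not tested.

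The class limit of 1% milk gene UMIs cut a range. The 12 barcodes just inside it, at 1% to 1.5%, had 640 CPM of Xbp1 and 533 CPM of Hspa5. The 14 just outside, at 0.5% to 1%, had 1014 and 695 CPM. In these small sums, given without intervals, Xbp1 was no lower just outside the class than just inside it. The whole class was at 827 CPM of Xbp1 and 1313 CPM of Hspa5, so Hspa5 was below the class level on both sides.

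The other gene lists were read in the same mammary and AT2 sums. Of the ER folding genes outside the 33, 15 of 25 were higher and 1 lower (median log2 ratio 0.80), with Fkbp11, a prolyl isomerase of secretory cells, at 239 against 14.8 CPM (16.2-fold) and Ero1l, the oxidase that recharges disulfide isomerases, 7.69-fold higher, and with Pdia5 at a ratio of 0.554 and Fkbp14 at 0.718. Of the translocon and signal peptide genes 24 of 27 were higher and none lower (median 1.30), from Ssr4 (5.62-fold) and Sec11c (5.56-fold) to Rpn1 (1.11-fold) and Sec61a1 (1.10-fold). COPII and Golgi transport genes were higher in 15 of 24 and lower in none (0.68), led by the cargo receptors Lman1 (8.33-fold) and Tmed9 (4.52-fold), with Sec13 (ratio 0.970) and Sec24a (0.979) at the other end. ER-associated degradation genes were higher in 8 of 21 and lower in 1 (0.43), from Erlec1 (2.80-fold) and Edem2 (2.32-fold) to Sel1l3 (0.377). These lists stood at or above the median of 0.47 over all genes except degradation.

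Other sensors and regulators were higher in 11 of 16 and lower in 3 (median 0.82), with Creb3l4, an ER-bound factor related to ATF6, 6.32-fold and Eif2ak2 2.27-fold higher, and Eif2ak4 (ratio 0.419) and Bcl2l11 (0.376) the lowest. The ATF4 target genes were split: 18 of 30 were higher and 6 lower (0.86). The serine synthesis genes Phgdh (64.1 against 2.87 CPM, 22.3-fold) and Psat1 (11.3-fold) led them, while Slc1a5 (ratio 0.112) and Gdf15 (0.0524) were the lowest. Cytosolic heat shock genes were higher in 2 of 16 and lower in 9 (-0.68), with Hspa4 (1.91-fold) and Hsp90ab1 (1.72-fold) the highest and Cryab (0.0801) and Hspb8 (0.0611) the lowest. Mitochondrial chaperones were higher in 7 of 10 and lower in none (0.74), from Grpel1 (2.64-fold) and Afg3l2 (2.16-fold) to Dnaja3 (1.29-fold) and Trap1 (1.17-fold). Immediate early genes, which respond to cell handling among other stimuli, were higher in 1 of 17 and lower in 11 (-0.72), with Ier3 19.2-fold higher, Ier2 at 1.11, Gadd45b at 0.186 and Socs3 at 0.126.

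**Figure D4:**
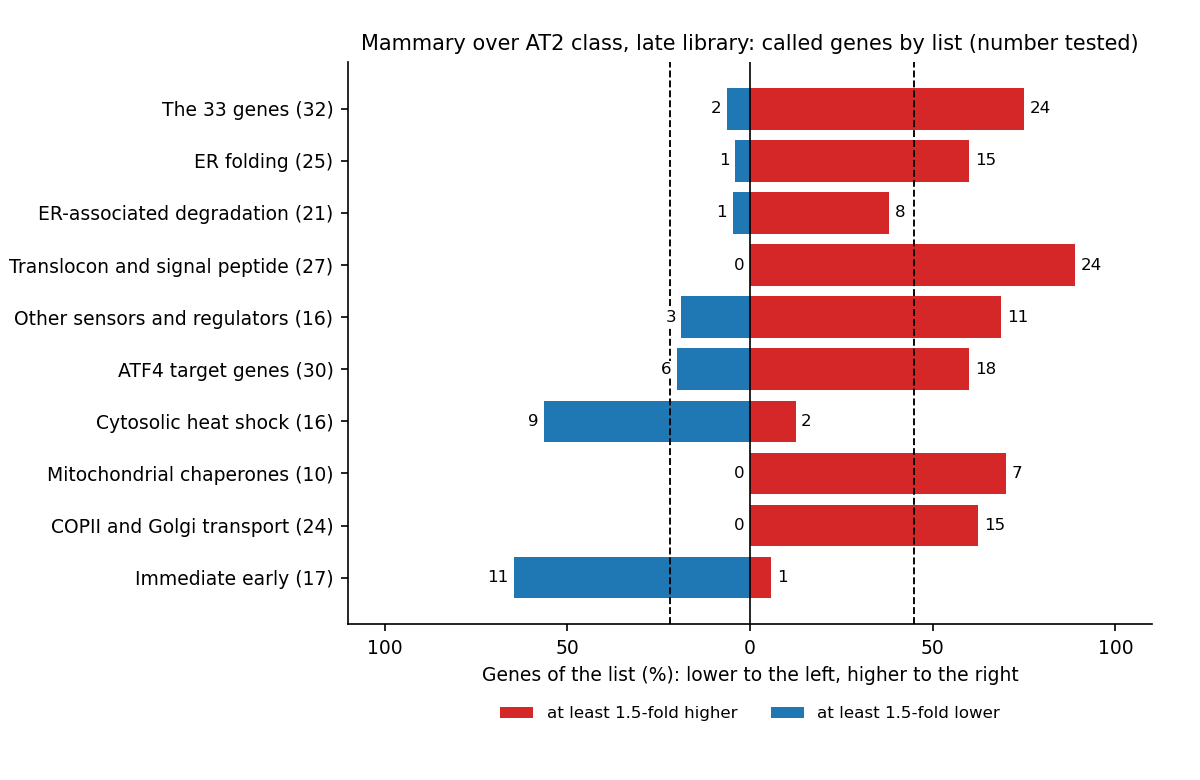
Share of the tested genes of each list that were at least 1.5-fold lower (left) or higher (right) in the mammary than in the AT2 class of the late HER2-positive library, in percent, with the number of genes at each bar. Dashed lines mark the shares over all genes tested, 21.8% lower and 44.8% higher. The 33 genes (24 higher, 2 lower) and the translocon list (24 and 0) lay to the right, cytosolic heat shock (2 and 9) and immediate early genes (1 and 11) to the left.

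The stage comparison set the early against the late HER2-positive library within each class. All 5 classes come from the same pair of libraries, so they are not independent, and stage, age, animal and library cannot be told apart. In AT2 barcodes the 33 genes were nearly level. They summed to 3436 CPM early and 3439 CPM late, 1 of 32 was higher in the early library (10.2% of all genes were) and 0 lower (1.66% of all), and the median log2 ratio was -0.02 against 0.09 over all genes. The gene called was Ppp1r15a, at 66.7 CPM early and 38.2 CPM late (1.74-fold, 1.63 to 1.87). Atf4 was at 134 and 101 CPM (1.33-fold, 1.27 to 1.39). Hspa5 was at 413 and 404 CPM, Xbp1 at 93.9 and 101 CPM and Ddit3 at 18.2 and 18.3 CPM, while Atf6 (25.2 and 27.5), Ern1 (12.7 and 12.2) and Eif2ak3 (8.01 and 10.2 CPM) were called in neither direction. In the same barcodes 9 of 17 immediate early genes were higher early, with a median log2 ratio of 0.59, and the ATF4 target Atf3 stood at 74.2 against 26.8 CPM (2.77-fold). The part of the immediate early response in the member differences was not tested.

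The other lists of the pathway were also nearly level between stages in AT2 barcodes. Of the ER folding genes 1 of 25 was higher early and 0 lower (median log2 ratio 0.02), from Fkbp7 (4.07 and 2.21 CPM early and late, 1.84-fold) and Tmx4 (1.35-fold) to Ppib (0.878) and Ero1lb (0.728). Degradation genes were higher in 0 of 21 and lower in 1 (0.03), which was Rnf5 at 13.3 CPM early (ratio 0.404), next to Edem3 (0.898), with Ube2j2 (1.20) and Fam8a1 (1.14) the highest. Translocon genes were higher in 0 of 27 and lower in 1 (-0.01), which was Ost4 at 40.1 and 102 CPM (0.393), next to Sec61g (0.724), with Ddost (1.17) and Srp72 (1.14) the highest. ATF4 target genes were higher in 1 of 30, Atf3, and lower in none (0.14), with Phgdh (4.01 and 2.87 CPM) the next highest and Cth (0.734) and Vegfa (0.778) the lowest.

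Of cytosolic heat shock genes 0 of 16 were higher and 2 lower early (-0.29): Hsph1 at 22.3 and 46.0 CPM (0.485) and Chordc1 at 37.2 and 58.9 CPM (0.631), while Dnajb4 (1.17) and Cryab (1.15) were the highest. None were called among 16 other sensors and regulators (0.04; Bbc3 1.26, Mbtps2 1.17, Creb3l1 0.868, Ppp1r15b 0.830), 10 mitochondrial chaperones (-0.07; Afg3l2 1.10, Trap1 1.02, Dnaja3 0.837, Hspe1 0.794) and 24 COPII and Golgi genes (-0.0019; Kdelr3 1.26, Tmed9 1.22, Copb1 0.890, Mcfd2 0.875). The highest immediate early genes were Klf4 (1.98-fold) and Dusp1 (1.95-fold) and the lowest Nr4a1 (1.22-fold) and Zfp36 (1.05-fold).

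In the mural, endothelial and fibroblast classes the called members were mostly lower in the early library, or higher in the late one. In mural barcodes 2 of 29 were higher (7.43% of all genes were) and 5 lower (4.24% of all), with a median log2 ratio of -0.27 against 0.02. In endothelial barcodes 0 of 32 were higher (6.84% of all) and 4 lower (3.59% of all), with medians of -0.18 and 0.05. In fibroblast barcodes 0 of 25 were higher (10.9% of all) and 8 lower (9.26% of all), with medians of -0.32 and 0.02. In airway barcodes 1 of 27 was higher (12.6% of all) and 2 lower (2.41% of all), with medians of 0.01 and 0.18.

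**Figure D5:**
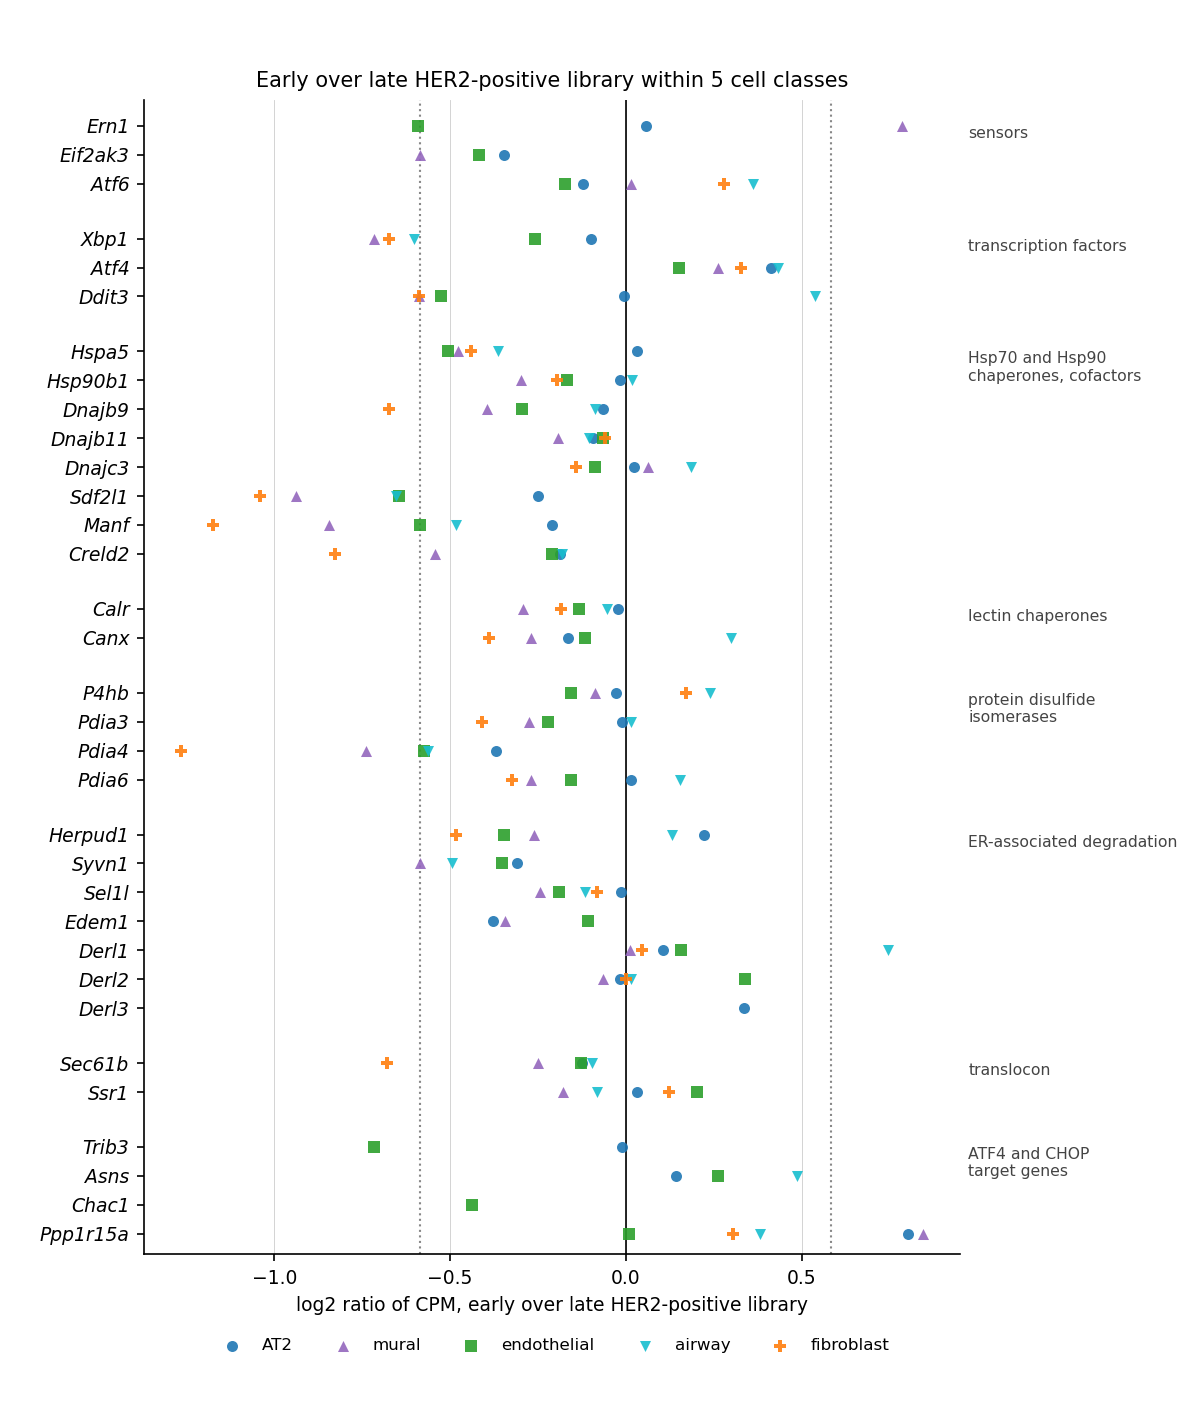
Ratio of each gene in the early to the late HER2-positive library, as log2 of CPM, with 1 point per class. Dotted lines mark 1.5-fold and no intervals are drawn. Pdia4 lay at -0.37 in AT2 and -1.27 in fibroblast barcodes, Manf at -0.21 and -1.17, and Ppp1r15a at 0.80 in AT2 and 0.85 in mural barcodes.

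Manf, Sdf2l1, Pdia4 and Xbp1 were each called lower in the early library in more than 1 class. Manf was at 151 CPM early and 270 CPM late in mural barcodes (ratio 0.557, 0.507 to 0.612), 217 and 325 CPM in endothelial (0.666), 289 and 652 CPM in fibroblast (0.443, 0.377 to 0.522), 166 and 232 CPM in airway and 121 and 140 CPM in AT2 barcodes. Sdf2l1 was at 19.8 and 37.8 CPM in mural barcodes (0.522, 0.401 to 0.678), 36.9 and 57.7 CPM in endothelial (0.64), 47.7 and 98.3 CPM in fibroblast (0.486), 26.1 and 41.1 CPM in airway (0.635) and 13.0 and 15.4 CPM in AT2 barcodes. Both were called in the mural, endothelial and fibroblast classes and not in AT2 barcodes, but the endothelial call of Manf lay at the 1.5-fold limit, with a log2 ratio of -0.59. It fell short of that limit under 8 of 14 alternatives, CPM without secretory products among them (range -0.63 to -0.57). The 14 varied filter, class limit, scaling, weighting, background, count minimum or the barcode with most counts. Of these, the count minimums cannot change a ratio. The endothelial call of Sdf2l1 fell short under 1 of 14.

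Pdia4 was at 49.9 and 83.3 CPM in mural (0.599), 73.1 and 176 CPM in fibroblast (0.416, 0.302 to 0.577), 71.3 and 106 CPM in endothelial, 71.1 and 105 CPM in airway and 37.7 and 48.8 CPM in AT2 barcodes, early and late. Xbp1 was at 127 and 209 CPM in mural (0.609), 170 and 271 CPM in fibroblast (0.627), 61.7 and 93.6 CPM in airway (0.659) and 196 and 235 CPM in endothelial barcodes, where it was not called. Hspa5 was lower in the early library without being called: 721 and 1005 CPM in mural, 634 and 900 CPM in endothelial, 577 and 742 CPM in airway and 1203 and 1632 CPM in fibroblast barcodes. These genes were also lower in the early background, the RNA of barcodes with 1 to 100 UMIs: Manf was at 143 against 181 CPM, Sdf2l1 at 18.4 against 27.5, Pdia4 at 32.8 against 47.8 and Xbp1 at 90.7 against 153 CPM. With background taken off, at a share per class estimated from genes of other classes, 5 members were lower early in mural, 4 in endothelial and 7 in fibroblast barcodes, and the log2 ratio of Manf was -0.85, -0.59 and -1.16 in those classes, against -0.84, -0.59 and -1.17 as counted.

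Of the genes of the PERK arm, Atf4 was at 186 CPM early and 155 CPM late in mural, 211 and 190 in endothelial, 120 and 88.6 in airway and 240 and 191 CPM in fibroblast barcodes, and was called in none. Ppp1r15a was at 121 and 67.6 CPM in mural barcodes (1.8-fold higher early, 1.55 to 2.08), 66.0 and 50.7 in airway, 128 and 103 in fibroblast and 180 and 179 CPM in endothelial barcodes. Ddit3 was lower early in mural (65.0 and 97.8 CPM, ratio 0.664) and fibroblast barcodes (80.8 and 122 CPM, ratio 0.665), at 35.4 and 51.1 CPM in endothelial and at 31.2 and 21.5 CPM in airway barcodes, where neither was called. Both calls of Ddit3 lay at the 1.5-fold limit. The mural call fell short of it under 6 of 14 alternatives and the fibroblast call under 8 of 14.

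The remaining calls of the stage comparison were few. Fibroblast barcodes, 71 in the late library, also had lower early Dnajb9 (0.627), Creld2 (0.563) and Sec61b (0.624). Airway barcodes had higher early Derl1 (1.68-fold, 1.24 to 2.27). Endothelial barcodes had lower early Trib3 (0.608, 0.352 to 1.06) and Ern1 (0.663, 0.503 to 0.878), and mural barcodes had higher early Ern1 (1.72-fold, 1.05 to 2.9), from 52 and 25 counts. Leaving out the barcode with the most counts of a gene reduced the endothelial calls from 4 to 2. In the same classes, immediate early genes were higher early in 14 of 17 (mural), 5 (endothelial), 10 (airway) and 5 (fibroblast), and lower in none. Their part in the member differences was not tested.

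The sort comparison set early HER2-positive against early HER2-negative barcodes within a class, where sort and library cannot be told apart. No member was called in endothelial barcodes, where 0 of 32 were higher (8.04% of all genes were) and 0 lower (3.93% of all), nor in fibroblast barcodes, where 0 of 29 were higher (12% of all) and 0 lower (10.7% of all). In mural barcodes 1 of 28 was higher (10.2% of all) and 0 lower (7.25% of all). It was Sdf2l1, at 19.8 against 12.3 CPM from 97 and 10 counts (1.61-fold, 0.836 to 3.45), whose interval includes 1. Median log2 ratios over the members were -0.07, 0.04 and -0.05 in endothelial, fibroblast and mural barcodes, against 0.01, 0.02 and -0.01 over all genes.

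The levels behind those ratios, HER2-positive first, were 196 and 250 CPM of Xbp1, 211 and 243 of Atf4, 35.6 and 47.2 of Atf6 and 35.4 and 29.7 CPM of Ddit3 in endothelial barcodes. In fibroblast barcodes they were 170 and 207 CPM of Xbp1, 240 and 238 of Atf4, 84.7 and 110 of Atf6 and 80.8 and 105 CPM of Ddit3. In mural barcodes they were 127 and 145 CPM of Xbp1, 186 and 171 of Atf4, 55.6 and 54.1 of Atf6 and 65.0 and 88.6 CPM of Ddit3. Ratios short of the 1.5-fold call whose intervals did not include 1 were, among others, Syvn1 at 0.743 (0.623 to 0.883) in endothelial barcodes. In fibroblast barcodes they included Calr at 1.35 (1.26 to 1.45) and Pdia6 at 1.34 (1.2 to 1.51).

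The last 2 comparisons describe lung cell classes within a library. In the early HER2-positive library, AT2 barcodes were set against endothelial barcodes. Of 32 genes, 1 was higher in AT2 barcodes, Herpud1 (16.3% of all genes were), at 221 and 129 CPM (1.72-fold, 1.6 to 1.85), and 21 were lower (56.3% of all). The median log2 ratio of -0.75 was close to the -0.74 of all genes tested. In plain CPM, fewer members than of all genes were higher by share and more were lower. With CPM counted without secretory products 2 were higher and 10 lower, against 21.7% and 37% of all genes. With the trimmed-mean factor 2 were higher and 5 lower, against 29.9% and 24.1% of all genes. Under both of these scalings, fewer members than of all genes were lower by share. The furthest members were Chac1 (ratio 0.0797, 0.039 to 0.153, from 13 and 38 counts), Asns (0.322), Calr (0.335, 0.324 to 0.347), Sdf2l1 (0.352), Ppp1r15a (0.37), Dnajb11 (0.421), Pdia3 (0.431), Hsp90b1 (0.465), Xbp1 (0.479) and Dnajc3 (0.486).

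In the early HER2-negative library, fibroblast barcodes were set against endothelial barcodes. Of 32 genes, 3 were higher in fibroblast barcodes (22.9% of all genes were) and 4 lower (25.6% of all), with median log2 ratios of -0.03 and -0.05. Ddit3 was at 105 and 29.7 CPM (3.53-fold, 3.08 to 4.05), Atf6 at 110 and 47.2 CPM (2.33-fold, 2.06 to 2.64) and Hspa5 at 1319 and 738 CPM (1.79-fold, 1.73 to 1.85). The 4 lower genes were the 4 ATF4 and CHOP target genes. Ppp1r15a was at 94.1 and 212 CPM (0.444, 0.395 to 0.497), Asns at 1.15 and 17.3 CPM (0.0663, 0.0179 to 0.171), Trib3 at 1.15 and 4.34 CPM (0.264, 0.0702 to 0.705), and Chac1 had 0 counts in fibroblast and 68 in endothelial barcodes, at least 4.51-fold lower against a limit of 3 counts over the fibroblast class. Ddit3 was thus higher in the class in which those 4 targets were lower. The separate list of other ATF4 target genes went the other way in sum, at 3694 CPM in fibroblast and 2367 CPM in endothelial barcodes. Atf4 was at 238 and 243 CPM, Xbp1 at 207 and 250, Ern1 at 23.0 and 16.2 and Eif2ak3 at 13.5 and 12.1 CPM, none of them called.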

How the data were processed

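The authors deposited unnormalised UMI counts per gene and barcode for 3 Chromium 3′ (version 3) libraries, 1 per group. The matrices were written by software 3.1.0, per the file headers, on genome build mm10 (submitters' processing notes). Aligner and annotation: not given in the sources used here. Genes were matched by symbol in the files, and promoter windows by symbol to RefSeq (GRCm38.p6), and gene bounds were taken from GENCODE.

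Counts were summed per library and class of at least 50 barcodes and divided by all UMIs of those barcodes (CPM). Intervals are 95%: exact Poisson (CPM) and exact conditional (ratios). UMIs share cells and 1 library, so intervals understate the error. Doublets were not removed. A barcode met the first class that matched, and 1-class barcodes alone were an alternative. Full values are given for sensors, factors and genes called at 2-fold or more in 1 of the 11 planned comparisons. Of other lists, the 2 highest and 2 lowest ratios are named, except 1 gene that is not reported here. The members and lists were chosen with earlier results of these data known, and the list of 16 secretory products likewise. In a simulated AT2 stage comparison over 27998 genes, 100% of 200 genes changed 2-fold were called. The simulation held counting error only, and the changed genes were expected at 200 or more counts over both sums. It therefore does not cover genes with few counts, smaller classes or variation between cells and libraries. Python 3.11.15, numpy 2.4.6, scipy 1.17.1, pandas 2.3.3 and matplotlib 3.10.9 were used.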

Additional observations from a re-analysis of the deposited data

Results flagged for a closer look

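Ern1, the gene of the sensor IRE1, was called in opposite directions in 2 classes under the same stage contrast. In mural barcodes the early over late ratio was 1.72 (1.05 to 2.9), from 10.6 and 6.14 CPM, and in endothelial barcodes it was 0.663 (0.503 to 0.878), from 19.6 and 29.5 CPM. Each class is 1 sum per library, and the difference between the classes was not tested. The counts are low: 52 and 25 in mural barcodes, and 132 and 89 in endothelial barcodes.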

How the results depend on the processing

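Each comparison was repeated under other filters, class limits, scalings, count minimums, a 2-fold call, without the barcode with most counts and, chosen after seeing the data, without the tenth of mammary barcodes with most UMIs (24 higher and 2 lower, as before). No paired analysis was possible because each group holds 1 library. Of the counts of members called, 356 alternatives were within 1.5 times and 48 were not. Of the single-gene ratios, 1391 moved by less than their counting interval, 153 by more and 9 changed sign. The 2-fold call and the count minimums cannot change a ratio, and each of these settings left 102 the same. Trimmed-mean scaling moved 49 by more than the interval and changed the sign of 8, with 45 the same. CPM without secretory products moved 41, with 61 the same. Mammary over AT2, 24 higher and 2 lower: with the trimmed mean 12 and 4, at 2-fold 15 and 0, and 1 lower without ribosomal and mitochondrial genes or with equal weight per cell. AT2 early over late, 1 higher: 2 with background taken off and 0 at 2-fold. Mural early over late, 2 higher and 5 lower: 1 higher with barcodes of 1 class, and 0 and 0 at 2-fold. Endothelial early over late, 4 lower: 2 at a 10% mitochondrial limit, 2 without the barcode with most counts and 0 at 2-fold. Airway early over late, 1 higher and 2 lower: 3 higher and 1 lower at the 10% limit, 3 higher with no count minimum, 2 higher with looser, stricter or 1-class limits, 0 higher and 5 lower with the trimmed mean, 5 lower without secretory products, 4 lower with equal weight and 0 and 0 at 2-fold. Fibroblast early over late, 8 lower: 3 at 2-fold. Endothelial HER2-positive over HER2-negative, 0 higher: 1 with looser or stricter limits. Mural HER2-positive over HER2-negative, 1 higher and 0 lower: 2 and 1 with stricter limits, 2 higher at a minimum of 10 or no minimum and without the barcode with most counts, 0 higher with 1-class barcodes or at 2-fold. Fibroblast HER2-positive over HER2-negative, 0 higher: 2 with no minimum. AT2 over endothelial, 1 higher and 21 lower: 2 and 10 without secretory products, 2 and 5 with the trimmed mean, 2 higher at a minimum of 10 or none, 0 and 10 at 2-fold. Mammary over endothelial, 10 higher: 16 with the trimmed mean and 6 at 2-fold. Mammary over fibroblast, 6 higher: 12 with the trimmed mean. With the trimmed mean, log2 ratios turned to -0.0008 for Syvn1 and -0.018 for Derl1 (mammary over AT2) and to 0.14 for Atf4, 0.17 for Ern1, 0.0198 for Eif2ak3, 0.17 for Hspa5, 0.14 for Canx and 0.0511 for Derl1 (AT2 over endothelial). With 1-class barcodes Sdf2l1 turned to -0.035 (mural HER2-positive over HER2-negative). The cause was not tested.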

Other observations

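Barcodes that matched no class were outside every comparison. In the late HER2-positive library they numbered 171. Of these, 21 had 0.1% or more of their UMIs on Csn3 and Wfdc18, below the limit of the mammary class, and held 302 counts of Xbp1, 10 of Derl3 and 12 of Trib3, with 0 counts of Jchain, a plasma cell gene. A further 2 barcodes had at least 3 Jchain UMIs and held 837 of the 838 Jchain counts, 8 of the 19 Derl3 counts and 63 of the 484 Xbp1 counts of unmatched barcodes.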
